A study of Mus musculus with 10 samples.

Results

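The arrays described here come from CJ9, a line of mouse embryonic stem cells (ESCs) derived from the strain 129SvJ, in which Wapl (called Wapal in the sample names) was depleted with either of 2 short hairpin RNAs (shRNAs). Both hairpins are directed at the same transcript, and the comparison asks how the transcriptomes of cells left with different amounts of Wapl mRNA differ. The members are the 4 arrays of Wapal shRNA1 and Wapal shRNA2, 2 per hairpin, of 10 arrays in the series, and they were chosen by those names. The 2 Empty Vector arrays (the lentiviral vector pLKO.1 without a hairpin) serve here as the reference and as the measure of how far arrays of a single group can lie apart. All 6 arrays come from cells infected for 48 h with lentivirus in the presence of polybrene and then kept in ESC medium with LIF and puromycin for 48 h, so that infection and drug selection are shared by controls and depleted cells. RNA was hybridised to genome-wide Affymetrix expression arrays. Replicates are named as biological without a statement that they came from separate infections, so each p-value measures only the spread between these arrays.

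Wapl is the factor that opens the cohesin ring and releases it from chromatin. Cohesin (Smc1a, Smc3, Rad21 and a Stag subunit) is loaded by Nipbl and Mau2, holds sister chromatids together and forms chromatin loops, and without Wapl it stays bound for longer. ESCs express pluripotency factors at high levels and keep developmental genes under Polycomb repression and many germline genes under promoter-based repression.

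The names of arrays were checked against Wapl first. In a supplementary expression table of the paper the columns of the second shRNA1 array and the first shRNA2 array carry each other's names. The deposited labels were used throughout, because under them the brightest Wapl probe set differed by only 0.11 (log2) within shRNA1 and 0.12 within shRNA2, whereas under the exchanged names it would differ by 1.98 and 2.21. For the next brightest the within-hairpin differences were 0.06 and 0.21 as labelled and 1.82 and 1.96 if exchanged.

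Wapl mRNA was lower with shRNA2 than with shRNA1 at both of its bright probe sets. The intensity of the brightest one was 2500 and 2648 in the Empty Vector arrays, 929 and 1005 with shRNA1, and 235 and 217 with shRNA2. The 3 groups did not overlap, and 37.5% of the Empty Vector level was left with shRNA1 and 8.78% with shRNA2. The log2 difference between the hairpins was -2.10 ± 0.11 (standard error, 2 arrays per hairpin; adjusted p = 0.00153), a 4.27-fold lower level with shRNA2, while the Empty Vector arrays differed by 0.08. At the next brightest the levels left were 38.7% and 10.4% and the difference was -1.89 (adjusted p = 0.00227). The third, a dimmer probe set, behaved in another way, reading 171 and 99.6 with Empty Vector, 175 and 170 with shRNA1 and 97.2 and 106 with shRNA2. Its Empty Vector difference of -0.78 was as large as its hairpin difference of -0.77 (adjusted p = 0.139). The remaining pair of Wapl probe sets lay between 6.4 and 13.5 on all 6 arrays.

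**Figure D1:**
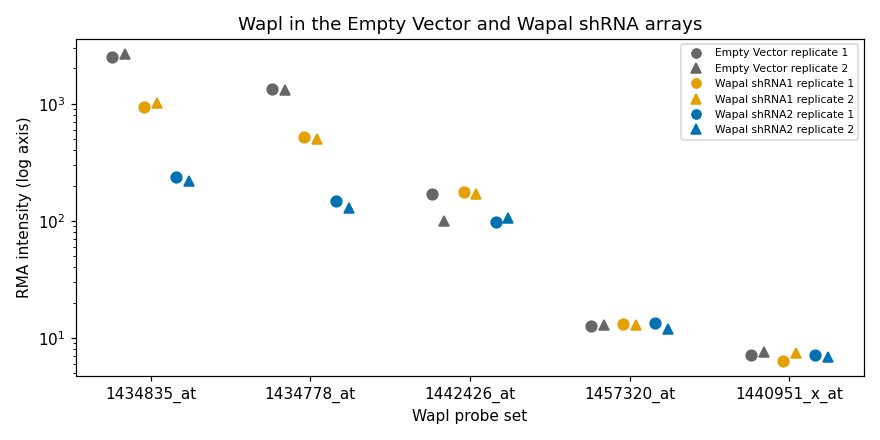
RMA intensity (vertical log axis) of the 5 Wapl probe sets in the Empty Vector, Wapal shRNA1 and Wapal shRNA2 arrays, 1 point per array and 2 arrays per group. At the brightest pair of probe sets the groups form 3 separate steps, at the third the Empty Vector arrays lie as far apart as the hairpins, and the last 2 probe sets are near the bottom of the scale.

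No other cohesin gene passed the test. Of 23 measured genes of the ring, its loader, its release factors and their regulators, Wapl alone passed. Counting Wapl, 6 had an unadjusted limma p under 0.05. Both shRNA2 arrays lay above both shRNA1 arrays in 9 (39.1%) and below them in 6. The differences of the other genes ran up to 0.70 in Smc1b, a meiotic ring subunit. It read 7.21 and 6.82 (log2) with shRNA1 and 7.60 and 7.83 with shRNA2 (adjusted p = 0.116). The ring subunits Smc1a (0.14), Smc3 (0.05) and Rad21 (-0.09), the loader Nipbl (-0.15), the partner of Wapl Pds5a (-0.33) and Ctcf (0.03) had adjusted p-values from 0.327 to 0.914.

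Across the transcriptome 498 of 45037 probe sets passed the test between the hairpins (limma, Benjamini-Hochberg adjusted p under 0.05), which is 1.11% of those tested. Of these, 321 were higher with shRNA2 (0.713%) and 177 were lower (0.393%). Counted with 1 probe set per gene, the brightest, 184 of 18193 genes were higher with shRNA2 (1.01%) and 80 were lower (0.44%). These percentages are the background for the counts of passing genes given for each group. Both shRNA2 arrays lay above both shRNA1 arrays in 31.4% of all genes and below them in 21.6%, and these shares are the background for the counts of separated genes given for each group. Differences were small for most of these genes, since 88 probe sets that were higher and 24 that were lower with shRNA2 exceeded 2-fold. The number of passing probe sets depended on having 2 arrays per hairpin. Without replicate 1 of shRNA1 none was left, without its replicate 2 there remained 1 higher (a probe set of Gbp2) and 1 lower (a probe set of Wapl), without replicate 1 of shRNA2 there remained 2 lower (both of Wapl), and without its replicate 2 none was left. Without either Empty Vector array the counts were 831 higher and 907 lower.

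Set beside the control pair, the hairpin difference was of similar size over all probe sets. The Empty Vector arrays differed by more than 2-fold in 108 probe sets and the hairpin means in 146, and at 1.5-fold the counts were 1462 and 1371. The Empty Vector values come from single arrays and the hairpin values from means of 2 arrays, so the former carry more noise. In 51.8% of probe sets the Empty Vector arrays lay farther apart than the hairpin means. The standard deviation of the log2 difference over all probe sets was 0.25 within Empty Vector, 0.203 within shRNA1 and 0.192 within shRNA2, and it ranged from 0.273 to 0.287 between single arrays of different hairpins. Among the 498 passing probe sets the Empty Vector difference (replicate 2 minus replicate 1, an order given by the array names alone) had the direction of the hairpin difference in 366 (73.5%), compared with 60.7% of all probe sets. It reached 0.5 times the hairpin difference in 20 and the whole of it in 0. Over all 45037 probe sets it reached 0.5 times in 44.7% and the whole in 14017. Because the Empty Vector pair enters the spread of this test, probe sets that differ between the Empty Vector arrays pass less easily. The low counts are therefore partly set by the test. They do not show that passing differences exceed those of the Empty Vector pair. In the 4 Wapal arrays alone, where that pair takes no part, 1738 probe sets passed and 83.5% of them had the Empty Vector direction. The Smc3 arrays, in which the cohesin subunit Smc3 was depleted with other hairpins, gave a separate pair of groups. Smc3 shRNA1 minus Smc3 shRNA2 had the direction of the Wapal difference in 386 of the 498 (77.5%), against 55.9% of all probe sets. This Smc3 difference was taken in the reverse order of hairpin numbers, which is a choice of sign. In the other order most of the 498 would run against the Wapal difference, so the share describes these arrays and tests no agreement. What differed between the Empty Vector arrays was not tested.

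When the Empty Vector difference was subtracted from the hairpin difference within limma, no probe set passed. The lowest adjusted p was 0.159, for Wapl, and 3295 probe sets (7.32%) had an unadjusted p under 0.05, including 474 of the 498 that passed between the hairpins. With the spread taken from all 10 arrays, 2 probe sets passed, both of Wapl. This second test asks more of 6 arrays than the first, since each Empty Vector array then stands alone, and the Empty Vector difference is therefore given beside the hairpin difference for the leading genes and for the gene groups.

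**Figure D2:**
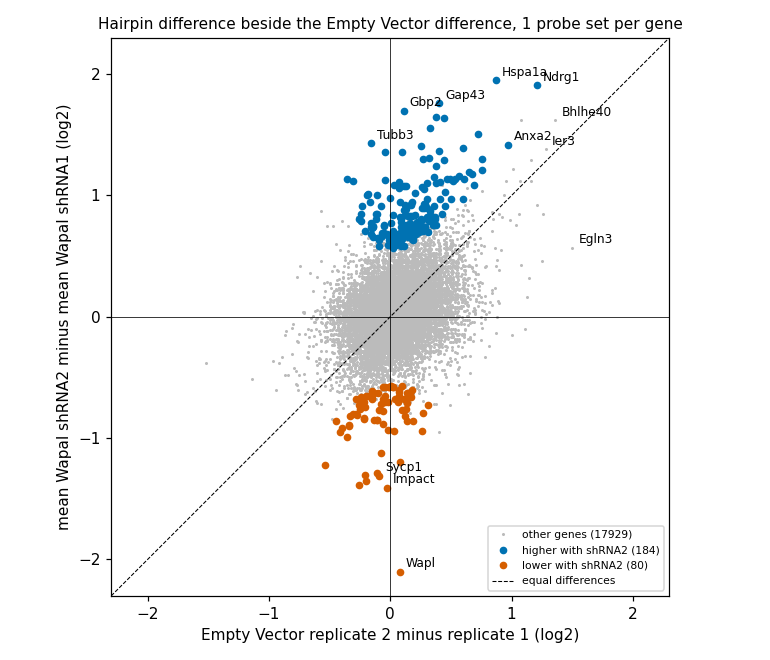
Log2 difference between the hairpin means (vertical axis) against the log2 difference between the Empty Vector arrays (horizontal axis), 1 point per gene. The 184 genes higher and 80 genes lower with shRNA2 lie far from the line of equal differences near Gbp2, Tubb3, Impact and Wapl and closer to it near Ndrg1 and Anxa2, whereas Egln3, Bhlhe40 and Ier3 have the largest Empty Vector differences and did not pass.

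Few of the genes followed the amount of Wapl left. In 28 of the 264 passing genes the 3 groups stood apart in the order of Wapl loss, from Empty Vector through shRNA1 to shRNA2 (10.6%, against 7.67% of all genes). In 117 (44.3%, against 4.39%) the hairpins lay on opposite sides of Empty Vector, and in 30 (11.4%, against 8.66%) both hairpins lay on one side of Empty Vector with shRNA1, the weaker hairpin, farther out. In the remaining 89 at least one pair of groups overlapped. A passing gene has to differ between the hairpins, which favours the orders that place them far apart, so these shares describe the genes and do not test an order.

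Among genes that were higher in the order of Wapl loss, the largest hairpin difference at the brightest probe set was that of Gbp2, a guanylate-binding protein. Its relative Gbp2b had the same order. Gbp2 and Gbp2b encode interferon-inducible GTPases of cell-autonomous immunity. Gbp2 read 3.59 and 3.71 (log2 intensity) with Empty Vector, 4.50 and 4.83 with shRNA1 and 6.50 and 6.23 with shRNA2. Gbp2b read 2.96 and 3.56, then 5.17 and 5.55, then 6.77 and 6.72. In both genes each step separated all arrays, and the Empty Vector and shRNA1 readings lay in the dim range of these arrays, for which no fold is given. The hairpin differences were 1.70 ± 0.15 for Gbp2 (adjusted p = 0.0102) and 1.39 ± 0.20 for Gbp2b (adjusted p = 0.0279), beside Empty Vector differences of 0.11 and 0.60. The Gbp genes are close relatives, and probes may read more than one of them. In the Smc3 arrays the same genes were higher with Smc3 shRNA1 than with Smc3 shRNA2, by 3.76 and 3.69.

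Most other interferon response genes did not pass. Of 37 measured members 2 were higher with shRNA2 (Gbp2 and Gbp2b), Bst2, which tethers budding virions, was lower, and the remaining 34 did not pass. Bst2 read 7.45 and 7.5 with Empty Vector, 8.39 and 8.30 with shRNA1 and 7.63 and 7.69 with shRNA2, so that shRNA1 stood highest (-0.68, adjusted p = 0.0317). Separation upwards was found in 19 of the 37 (51.4%). The median member differed by 0.13, beside 0.11 between the Empty Vector arrays and 0.03 over all genes.

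The proximal promoters of the pair are shown because they hold the letters of the interferon-stimulated response element. The sequences are RefSeq windows of build GRCm38.p6, read 5′ to 3′ on the strand of the gene and ending before its start, and the capitals mark a match to GAAANNGAAA, which here lies on the opposite strand. Gbp2 is at chr3:142620559-142620658 and Gbp2b at chr3:142594665-142594764, both on the plus strand.
Gbp2: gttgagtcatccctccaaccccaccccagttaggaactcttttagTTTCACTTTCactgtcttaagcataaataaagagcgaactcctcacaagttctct
Gbp2b: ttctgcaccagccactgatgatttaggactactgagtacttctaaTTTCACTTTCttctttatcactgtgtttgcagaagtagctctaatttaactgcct
Of 32851 windows from 250 bases before to 50 bases after a gene start, 3.44% hold such a match on either strand. Among the genes higher with shRNA2 that have a window the share was 3.97%. The motif was picked after these genes were seen, and a match describes letters only.

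Anxa2, Adm, Lef1, Cdkn1c and Nat8f2 were graded upwards as well. The step from Empty Vector to shRNA1 passed in limma for Anxa2 (1.19, adjusted p = 0.0431), Adm (0.92, adjusted p = 0.0388) and Lef1 (0.91, adjusted p = 0.0125). It did not pass for Cdkn1c (0.32, adjusted p = 0.173) or Nat8f2 (0.40, adjusted p = 0.183). Anxa2, a calcium-dependent membrane-binding protein, read 8.09 and 9.06 with Empty Vector, 9.74 and 9.80 with shRNA1 and 11.09 and 11.29 with shRNA2. Its hairpin difference of 1.42 (adjusted p = 0.0493) stands beside an Empty Vector difference of 0.97, and the median over its 3 probe sets was 0.64. Lef1, a transcription factor of the Wnt pathway, is a clearer case of a graded gene, since its Empty Vector arrays read 6.70 and 6.54, shRNA1 7.38 and 7.68 and shRNA2 8.48 and 8.48 (0.95 ± 0.13, adjusted p = 0.0254). Its Empty Vector difference ran the other way, at -0.17. Cdkn1c, an imprinted inhibitor of cyclin-dependent kinases, read 6.81 and 6.99, 7.14 and 7.29, and 8.07 and 8.20 (0.92, adjusted p = 0.0217, Empty Vector 0.17). Nat8f2, an acetyltransferase family member, differed by 1.00 (adjusted p = 0.0323) with an Empty Vector difference of -0.11, but the median over its 3 probe sets was 0.09, so this difference rests on a single probe set.

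Downwards, after Wapl itself, the graded genes with the largest differences were Steap1, Maats1, Spast and Ninl. Steap1, of a family of metalloreductases, read 9.33 and 8.93 with Empty Vector, 8.85 and 8.89 with shRNA1 and 7.95 and 7.96 with shRNA2 (-0.92, adjusted p = 0.0323). Spast, a microtubule-severing ATPase, read 8.42 and 8.55, 8.27 and 8.30, and 7.63 and 7.52 (-0.71, adjusted p = 0.0323). In these genes most of the loss lay between the hairpins. The step from Empty Vector to shRNA1 was small and did not pass in limma (Steap1 -0.26, adjusted p = 0.34, Spast -0.20, adjusted p = 0.345). Maats1 (-0.77, with -0.03 at its other probe set) and Ninl, a centrosomal protein (-0.70), had the same order. Their first steps of -0.23 and -0.37 did not pass either (adjusted p = 0.313 and 0.131). Apart from Wapl, the order of these genes therefore rests on readings that did not overlap.

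Several of the largest differences placed the hairpins on opposite sides of the control. Gap43, a protein of neuronal growth cones, read 6.25 and 6.65 with Empty Vector, 5.06 and 5.15 with shRNA1 and 6.94 and 6.78 with shRNA2. The difference was 1.76 ± 0.15 (3.38-fold, adjusted p = 0.00955, Empty Vector 0.40). Here shRNA1 was far below the control and shRNA2 just above it. Tcf24, a basic helix-loop-helix factor (1.64, Empty Vector 0.44), Gsn, the actin-severing protein gelsolin (1.51, Empty Vector 0.72), Tgfbi, a secreted matrix protein (1.37, Empty Vector 0.40), and Gca, a calcium-binding protein (1.36, Empty Vector 0.10), had the same order, with adjusted p-values from 0.0083 to 0.0268. Over the 6 probe sets of Gsn the median was 0.96. The order rests on readings that did not overlap, since in none of these genes did both hairpins pass against Empty Vector. For Gap43 and Gca shRNA2 did not pass (0.41 and 0.28, adjusted p = 0.152 and 0.18). For Tcf24 and Tgfbi shRNA1 did not pass (-0.64 and -0.41, adjusted p = 0.0684 and 0.145). For Gsn neither did (shRNA1 -0.88, adjusted p = 0.0549, shRNA2 0.62, adjusted p = 0.134).

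Impact lay the other way. It is an imprinted gene whose product restrains the amino acid sensor Gcn2, and it read 9.37 and 9.34 with Empty Vector, 9.85 and 9.86 with shRNA1 and 8.47 and 8.43 with shRNA2. The replicates agreed within 0.04 in every group and the hairpin difference was -1.41 ± 0.10 (2.66-fold lower, adjusted p = 0.0049), beside an Empty Vector difference of -0.03. Its 3 probe sets did not give one size, since all were lower with shRNA2 but ranged from -1.41 to -0.29 with a median of -0.40. Among 34 measured imprinted genes, Impact was the one lower and Cdkn1c the one higher with shRNA2. Nxt2, a cofactor of RNA export, had the order of Impact (8.52 and 8.31, 9.33 and 9.33, then 8.10 and 7.96; difference -1.30, adjusted p = 0.0102).

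In a further set both hairpins lay on one side of the control and the weaker one was farther out. Tubb3, the neuronal beta-tubulin, read 7.69 and 7.53 with Empty Vector, 5.42 and 5.77 with shRNA1 and 6.94 and 7.11 with shRNA2 (1.43 ± 0.14, adjusted p = 0.0118). Ccnd2, cyclin D2, read 7.48 and 7.45, 5.34 and 5.81, and 6.85 and 7.01 (1.36 ± 0.16, adjusted p = 0.0173). The Empty Vector differences of these genes, -0.16 and -0.04, were small and opposite in sign. Inhbb, the activin beta B subunit, read 10.12 and 9.88, 8.66 and 8.62, and 9.56 and 9.42 (0.85, adjusted p = 0.0277) and had this order too. With Gap43 and Map2 (1.15, adjusted p = 0.0189), Tubb3 was one of 3 of 20 measured ectoderm and neural markers that were higher with shRNA2. The Map2 value rests on 1 dim probe set (3.98 and 4.17 with shRNA1, Empty Vector difference 0.36), and the median over its 4 probe sets was 0.06. Over the list the median marker differed by 0.08, beside 0.06 between the Empty Vector arrays, and 7 of 20 separated upwards (35.0%).

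Further genes among the 15 lowest with shRNA2 have no shared role. Fam136a, a mitochondrial protein, read 10.85 and 10.59 with Empty Vector, 10.68 and 10.6 with shRNA1 and 9.22 and 9.28 with shRNA2 (-1.39, adjusted p = 0.0102, Empty Vector -0.26), so that shRNA2 alone stood apart. Gja1, the gap junction protein connexin, read 11.49 and 11.12, 11.58 and 11.84, and 10.93 and 10.51 (-0.99, adjusted p = 0.0486, Empty Vector -0.36). In Fgfbp1, a carrier of fibroblast growth factors (-1.22), and Lpar6, a lysophosphatidic acid receptor (-0.95), shRNA1 was above the control and shRNA2 near it. Their Empty Vector differences of -0.54 and -0.41 ran in the direction of the hairpin difference, whereas that of Smtnl1 (-0.94) ran against it (0.26).

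**Figure D3:**
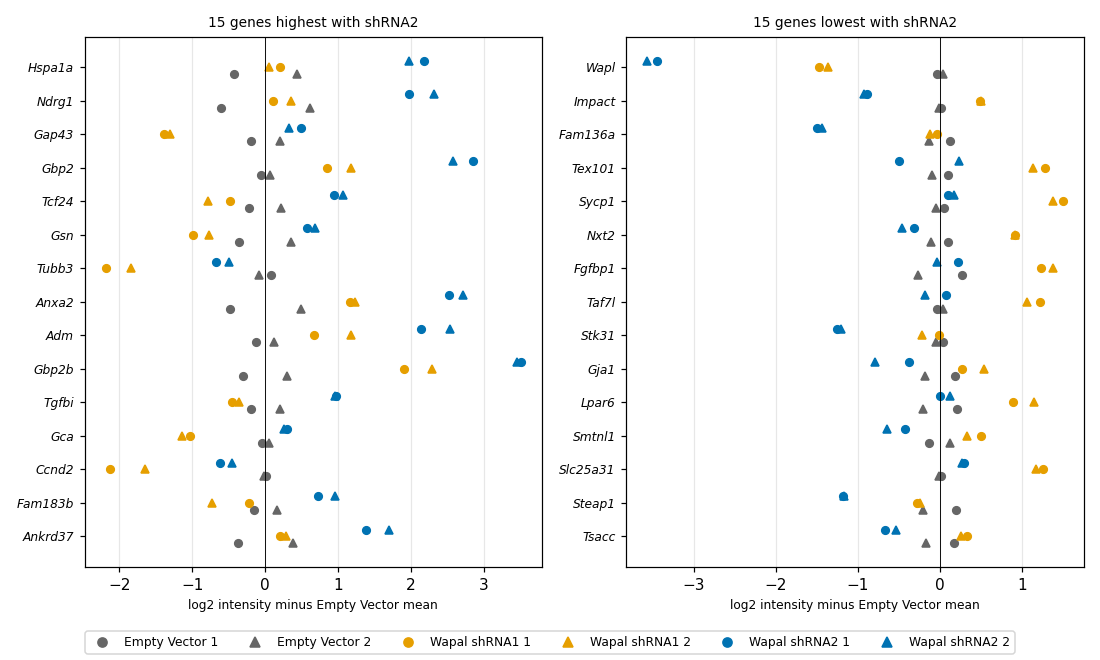
Log2 intensity minus the Empty Vector mean (horizontal axis) of the 15 genes highest and the 15 genes lowest with shRNA2 among genes with a mean log2 of at least 6 under either hairpin, 1 point per array. Hspa1a, Ndrg1 and Ankrd37 stand apart from the control mainly with shRNA2, Tubb3 and Ccnd2 mainly with shRNA1, and Gbp2 and Wapl in steps.

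The lower genes included many that are normally expressed in germ cells. Tex101, Sycp1, Taf7l, Stk31, Slc25a31 and Tsacc were among the 15 lowest with shRNA2, and a list of germline and meiosis genes was drawn up after they had been seen. Of 57 measured members, 11 were lower with shRNA2 (Mael, Tex12, Gtsf1, Hormad1 and Ddx4 besides those named), Aurkc was higher and 45 did not pass. Since the leading members shaped the list, its count is a description. The median member differed by -0.08, beside 0.08 between the Empty Vector arrays.

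For most of these genes it was shRNA1 that stood apart from the control. Sycp1, the transverse filament of the synaptonemal complex, read 6.1 and 6 with Empty Vector, 7.55 and 7.43 with shRNA1 and 6.15 and 6.22 with shRNA2 (-1.31 ± 0.11, adjusted p = 0.00955). Taf7l, the germ-cell form of a subunit of the general factor TFIID, read 6.33 and 6.41, 7.59 and 7.44, and 6.44 and 6.19 (-1.20, adjusted p = 0.0118). Slc25a31, the germ-cell ADP/ATP carrier, read 6.51 and 6.49, 7.76 and 7.68, and 6.80 and 6.77 (-0.93, adjusted p = 0.0151). In these genes shRNA2 was close to Empty Vector although less Wapl was left.

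Mael, a piRNA pathway protein, was above the control with both hairpins, at 8.29 and 8.45 with Empty Vector, 9.85 and 9.78 with shRNA1 and 9.19 and 9.12 with shRNA2 (-0.66, adjusted p = 0.0401). Stk31, a germ-cell tudor domain protein, went the other way from the rest, with 6.94 and 6.85, 6.88 and 6.68, and 5.64 and 5.69 (-1.12, adjusted p = 0.0118), so that shRNA2 alone was separate. Ddx4, the Vasa helicase (-0.85), Hormad1, of meiotic chromosome axes (-0.85), Gtsf1 (-0.82), Tsacc (-0.90) and Tex12, of the synaptonemal central element (-0.73), had shRNA1 above both other groups on every array. Tex101 was the least even, reading 4.71 and 5.44 with shRNA2 (-1.35, adjusted p = 0.0345). Over the 11 genes the Empty Vector differences ran from -0.34 to 0.15.

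**Figure D4:**
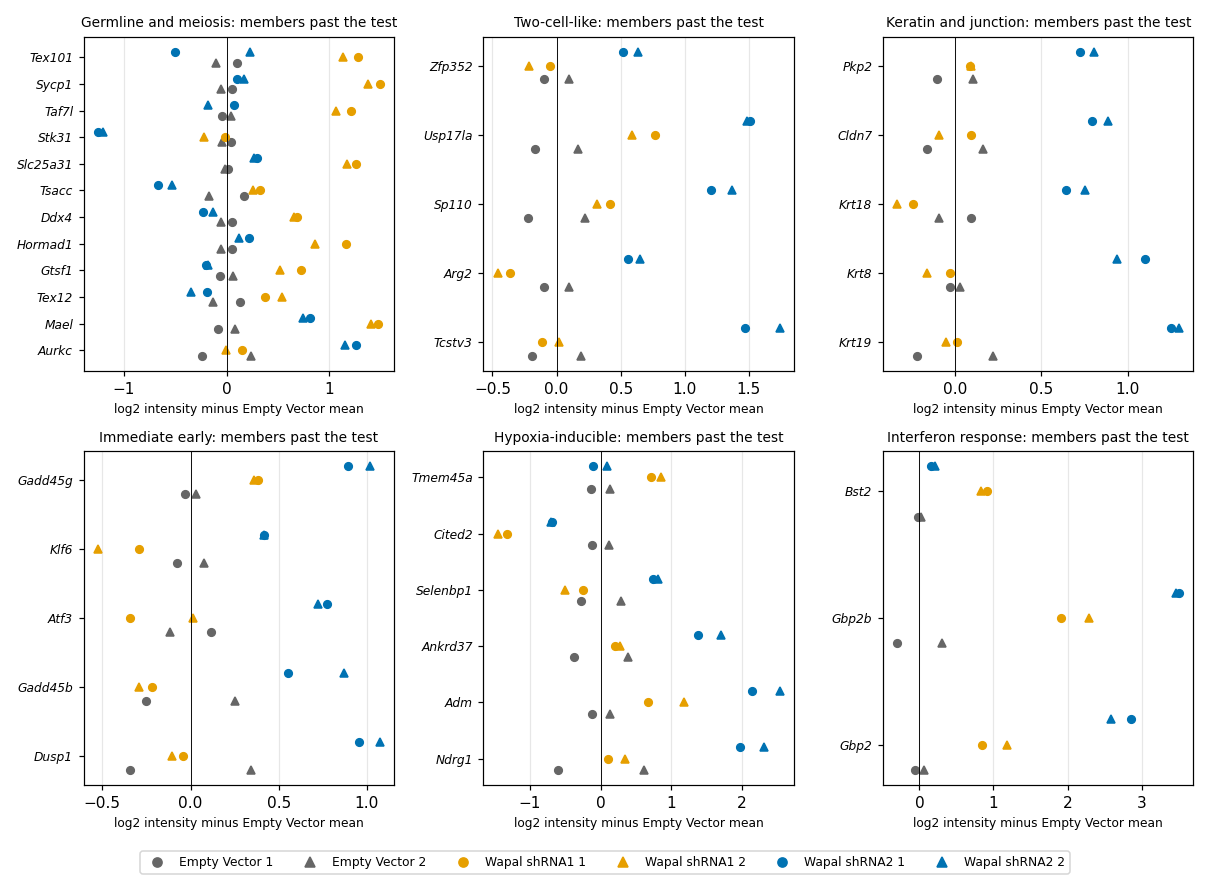
Log2 intensity minus the Empty Vector mean (horizontal axis) of the members of 6 gene groups that passed the test between the hairpins, 1 point per array. In the germline panel the shRNA1 arrays lie to the right of the others for all but Stk31 and Aurkc, whereas in the two-cell-like and keratin panels the shRNA2 arrays lie to the right of all others.

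Stretches upstream of the starts of these genes are shown because 8 of the 11 lower germline genes hold the palindrome CACGTG, an E-box bound by many basic helix-loop-helix factors, in the promoter window (72.7%). The share was 7.15% of all windows, 10.2% of measured genes with a window, 13 of the 68 genes lower with shRNA2 that have a window, 15.9% of the genes higher with shRNA2, and 36.0% of the 50 listed germline genes with a window. Build, source and reading direction are as for the Gbp genes, and the capitals mark CACGTG, which reads the same on both strands.
Sycp1: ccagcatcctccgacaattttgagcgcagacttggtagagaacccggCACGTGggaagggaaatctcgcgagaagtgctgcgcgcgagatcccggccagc
Taf7l: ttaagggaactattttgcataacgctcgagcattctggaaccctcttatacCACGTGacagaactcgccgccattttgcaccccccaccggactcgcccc
Slc25a31: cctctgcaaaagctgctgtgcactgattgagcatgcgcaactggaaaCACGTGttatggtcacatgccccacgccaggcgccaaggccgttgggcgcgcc
Mael: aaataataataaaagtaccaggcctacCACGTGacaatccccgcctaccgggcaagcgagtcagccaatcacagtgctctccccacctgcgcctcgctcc
Stk31: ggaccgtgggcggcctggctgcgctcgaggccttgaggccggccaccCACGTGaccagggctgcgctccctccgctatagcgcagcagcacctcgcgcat
Ddx4: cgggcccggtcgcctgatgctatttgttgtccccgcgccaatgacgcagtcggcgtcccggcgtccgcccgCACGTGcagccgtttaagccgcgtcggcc
Hormad1: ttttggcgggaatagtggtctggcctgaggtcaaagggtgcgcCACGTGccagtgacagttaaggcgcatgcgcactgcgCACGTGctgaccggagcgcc
Tex12: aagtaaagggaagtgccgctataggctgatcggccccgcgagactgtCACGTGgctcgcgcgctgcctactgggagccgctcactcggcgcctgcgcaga
They lie at chr3:102936142-102936241 on the minus strand (Sycp1), chrX:134476491-134476590 minus (Taf7l), chr3:40708731-40708830 plus (Slc25a31), chr1:166238895-166238994 minus (Mael), chr6:49395437-49395536 plus (Stk31), chr13:112652311-112652410 minus (Ddx4), chr3:95559577-95559676 plus (Hormad1) and chr9:50561309-50561408 minus (Tex12). Hormad1 holds 2 matches, and no match was found in the windows of Tex101, Gtsf1 and Tsacc. The motif was searched after these genes had been seen, so the shares are descriptions.

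A small share of ESCs enters at any time a two-cell-like state, which resembles the cleavage-stage embryo. Of 24 listed markers of this state 9 were measured by a probe set with 1 symbol, and none of the listed Zscan4 genes was among them. Of these 9 markers 5 were higher with shRNA2 (Tcstv3, Arg2, Sp110, Usp17la and Zfp352), all 9 differed upwards and 8 separated fully (88.9%). Tcstv3 read 3.93 and 4.31 with Empty Vector, 4.01 and 4.14 with shRNA1 and 5.59 and 5.86 with shRNA2 (1.65 ± 0.15, adjusted p = 0.0108, dim in the first 4 arrays, so no fold is given), Arg2, an arginase, read 9.03 and 9.23, 8.77 and 8.67, and 9.69 and 9.78 (1.02, adjusted p = 0.0171), and Usp17la, a ubiquitin protease, read 10.35 and 10.68, 11.28 and 11.10, and 12.02 and 12.00 (0.82, adjusted p = 0.0389). The shRNA2 arrays were the highest of the 6 in each. Sp110 differed by 0.91 at its brightest probe set and by a median of 0.55 over 3. The median marker differed by 0.71, beside 0.30 between the Empty Vector arrays, which was also above the 0.04 of all genes. Duxf3, the factor that opens this program, was dim and read 4.63 and 4.78 with shRNA1 and 4.71 and 5.01 with shRNA2 (0.15, adjusted p = 0.611). Tcstv3, Usp17la and Zfp352 belong to families of near-identical copies, and the members cannot be told apart by these probes with certainty. In a mixed culture more cells in this state and more RNA per cell cannot be told apart.

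Of 35 keratin, desmosome and epithelial junction genes 5 were higher with shRNA2, 30 did not pass and 19 separated upwards (54.3%). The 5 were the simple-epithelium keratins Krt19 (1.29, adjusted p = 0.0171, Empty Vector 0.44), Krt8 (1.11, adjusted p = 0.0118) and Krt18 (1.00, adjusted p = 0.0173), the claudin Cldn7 (0.84, Empty Vector 0.33) and the desmosomal plaque protein Pkp2 (0.68, Empty Vector 0.21, median over its 4 probe sets 0.45). Krt8 read 7.10 and 7.16 with Empty Vector, 7.10 and 6.97 with shRNA1 and 8.23 and 8.07 with shRNA2. Its partner Krt18 read 7.26 and 7.07, 6.92 and 6.83, and 7.81 and 7.92. The Empty Vector differences of this keratin pair were 0.07 and -0.19. The shRNA2 arrays were the highest in both, and in Krt18 the shRNA1 arrays also lay below both Empty Vector arrays. Cdh1, the adherens junction cadherin, differed by -0.03 (adjusted p = 0.932), and the median over the 35 was 0.19 beside 0.14. Lgals3, a galectin, was the 1 of 24 trophectoderm markers that passed (0.97, adjusted p = 0.0217, Empty Vector 0.30), and none of 27 endoderm and basement membrane markers or of 22 mesoderm markers did.

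At the brightest probe set of each gene, the heat shock gene Hspa1a had the largest difference of the named genes that were higher with shRNA2. Dimmer probe sets of Adm (2.39) and Gbp2 (2.22) differed by more. Hspa1a has a single probe set. It encodes the inducible Hsp70 chaperone and read 5.67 and 6.54 with Empty Vector, 6.31 and 6.15 with shRNA1 and 8.28 and 8.08 with shRNA2 (1.95 ± 0.24, 3.87-fold, adjusted p = 0.0189, Empty Vector 0.87). Hspa1b, a nearly identical neighbour, read 8.67 and 8.94, 8.29 and 8.29, and 9.65 and 9.53 (1.30, adjusted p = 0.0111, Empty Vector 0.27). The other 21 of 23 chaperone genes on a list drawn up after these had been seen did not pass, and the median was -0.02.

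Genes that respond to low oxygen had, in the median, an Empty Vector difference in the direction of the hairpin difference. Of 42 such genes outside glycolysis 5 were higher with shRNA2 (Ndrg1, Adm, Ankrd37, Selenbp1 and Cited2) and Tmem45a was lower, and 30 separated upwards (71.4%). The medians were 0.35 between hairpins and 0.25 between the Empty Vector arrays. Ndrg1, a stress-inducible gene, read 6.63 and 7.85 with Empty Vector, 7.34 and 7.59 with shRNA1 and 9.21 and 9.55 with shRNA2 (1.91 ± 0.33, adjusted p = 0.0419), beside an Empty Vector difference of 1.21. Adm, the vasodilator peptide adrenomedullin, had a smaller Empty Vector difference of 0.25 beside 1.41 and read 5.39 and 5.64, 6.19 and 6.69, and 7.65 and 8.05 (adjusted p = 0.0264). Cited2, an inhibitor of hypoxia factors, was lowest with shRNA1, at 7.51 and 7.38 against 8.72 and 8.96 with Empty Vector and 8.15 and 8.14 with shRNA2, a hairpin difference of 0.70 at this probe set and 0.08 at its other one.

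Glycolysis and glycogen genes are the sharpest case. None of 30 passed, although 26 separated upwards (86.7%) and 20 had an unadjusted limma p under 0.05. The medians of 0.46 between hairpins and 0.43 between the Empty Vector arrays were nearly the same. The Empty Vector spread enters this test, so genes that differ between those arrays pass less easily. That none passed therefore does not show that the hairpins are alike in these genes. Aldoc, an aldolase, differed by 1.29 between the hairpins and 1.16 between the Empty Vector arrays (adjusted p = 0.0966). The genes with the largest Empty Vector differences, Egln3 (1.5), Bhlhe40 (1.36), Ier3 (1.28), Anp32a (1.26), Nupr1 (1.25) and Ndrg1, had hairpin differences from 0.46 to 1.91 in the same direction, and of these Ndrg1 alone passed. Immediate early genes had medians of 0.16 and 0.17. Of 38, 5 were higher with shRNA2, namely Dusp1 (1.09, Empty Vector 0.69), Gadd45b (0.97; 0.50, median over its 3 probe sets 0.53), Atf3 (0.91; -0.23), Klf6 (0.83; 0.15) and Gadd45g (0.59; 0.05).

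**Figure D5:**
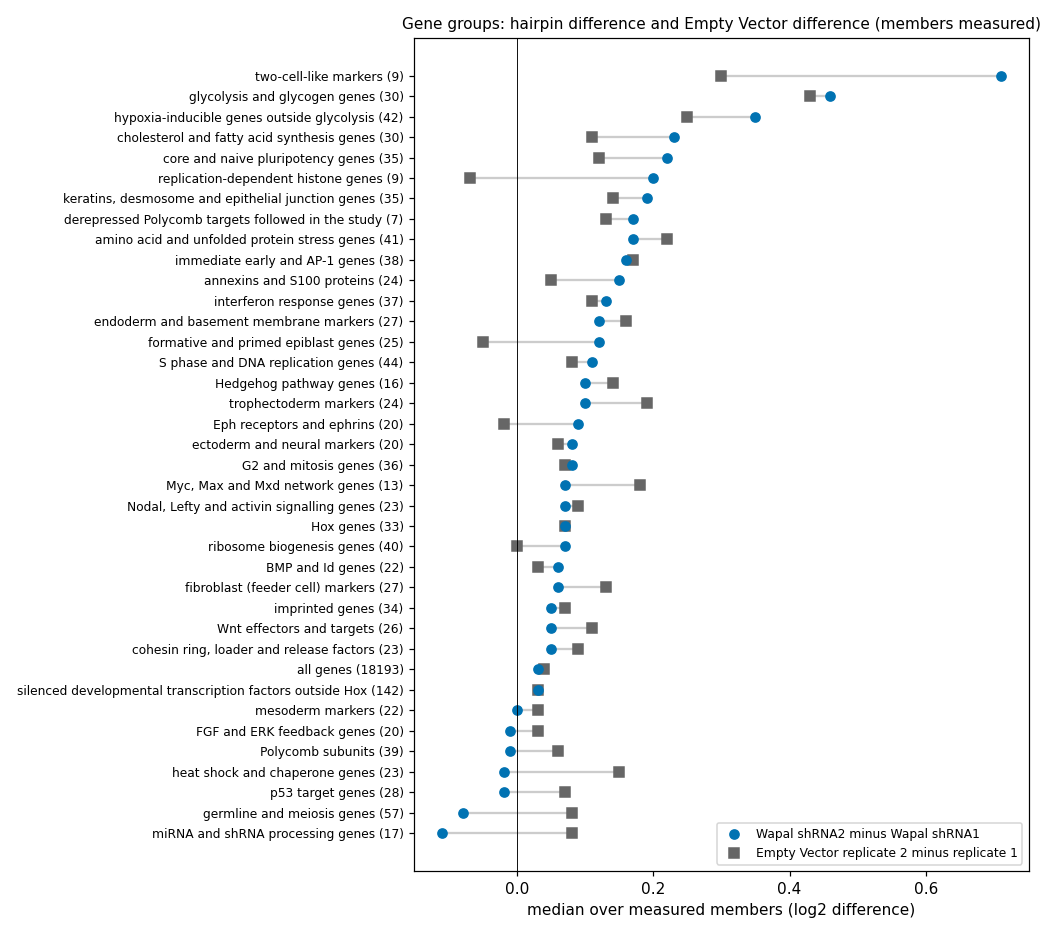
Median log2 difference over the measured members of each gene group (number in brackets), between the hairpins (circles) and between the Empty Vector arrays (squares). Glycolysis genes have both values close together (0.46 and 0.43), two-cell-like markers the widest gap among the groups with higher values (0.71 and 0.30), and most other groups lie close to the values over all genes (0.03 and 0.04).

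Of 35 measured pluripotency genes 3 were higher with the stronger hairpin and 32 did not pass. The median was 0.22, beside 0.12 between the Empty Vector arrays. The 3 were the naive factors Klf2 (0.93, adjusted p = 0.0227) and Prdm14 (0.73, adjusted p = 0.0419) and the growth factor Fgf4 (0.76, adjusted p = 0.0474), with Empty Vector differences of 0.28, 0.19 and 0.38, and 24 of the 35 separated upwards (68.6%). Klf2 read 10.86 and 11.14 with Empty Vector, 10.09 and 10.02 with shRNA1 and 11 and 10.97 with shRNA2, and Prdm14 read 9.39 and 9.58, 8.71 and 8.48, and 9.36 and 9.29. In both genes shRNA1 lay farther below the control. The shRNA2 arrays of Klf2 lay among the Empty Vector arrays, and those of Prdm14 just below them. Pou5f1 (0.23), Sox2 (0.18) and Nanog (0.46), which define the state, were at 12 or above in log2 on all 6 arrays and did not pass (adjusted p = 0.324, 0.479 and 0.0894). The mean level of the 35 genes was 10.22 and 10.35 with Empty Vector, 10.06 and 10.02 with shRNA1 and 10.22 and 10.21 with shRNA2, so the labelled cell type is borne by its markers on each array. Of 27 fibroblast markers, which feeder cells would carry, only Vim passed, and it was lower with shRNA2 (-0.73, adjusted p = 0.0419). The mean of that list lay between 5.41 and 5.55 on all arrays and Col3a1 between 2.67 and 2.99.

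Genes under Polycomb repression gave no difference between the hairpins that passed. None of 33 Hox genes, 142 other silenced developmental transcription factors or 39 Polycomb subunits did, and the medians were 0.07, 0.03 and -0.01. Most of the Hox genes and other factors were dim, where a difference could hardly show. A mean log2 of at least 6 under either hairpin was reached by 4 of the Hox genes, 20 of the other factors and 34 of the subunits. Of the 7 derepressed targets that the study followed, none passed either. All but Fos were chosen there as derepressed on these same arrays, while Fos was chosen for several reasons, among them its isolated locus. Sox11 (-0.18), Snai2 (-0.03), Lefty1 (0.19), Hoxd1 (0.17) and Twist1 (-0.35) differed by 0.35 or less, and each of them was above both Empty Vector arrays with both hairpins. Sox11, for instance, read 7.69 and 7.68 with Empty Vector, 8.48 and 8.63 with shRNA1 and 8.37 and 8.39 with shRNA2. Ppp1r3c (1.22, adjusted p = 0.0915) and Fos (0.85, adjusted p = 0.15) differed by more, and their Empty Vector differences were 1.01 and 0.90. Against Empty Vector neither passed with shRNA1 (0.13 and 0.20, adjusted p = 0.84 and 0.705). With shRNA2 Ppp1r3c passed (1.35, adjusted p = 0.0438) and Fos did not (1.05, adjusted p = 0.0585). Hoxd1 and Twist1 were dim, below log2 6 on all 6 arrays.

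Over all genes 1.01% were higher and 0.44% lower with shRNA2, so a single passing member of a list describes that gene and not the group. Other groups held single passing genes. These were Kif23, a mitotic kinesin (1.10, adjusted p = 0.0237, Empty Vector 0.38), of 36 G2 and mitosis genes, Ccne2, cyclin E2 (-0.89, adjusted p = 0.0348, Empty Vector -0.34), of 44 S phase genes, Ddit4l (0.68, Empty Vector 0.13, median over its 3 probe sets 0.28) of 28 p53 targets, Mlx (0.85, Empty Vector -0.12) of 13 genes of the Myc network, Lef1 of 26 Wnt and of 25 formative epiblast genes, Inhbb of 23 Nodal and activin genes, Fgf4 of 20 FGF genes and Anxa2 of 24 annexins and S100 proteins. Bmpr2, a BMP receptor (0.73, Empty Vector 0.13, median over its 3 probe sets 0.25), and Id4 (0.91, Empty Vector 0.36) passed among 22 BMP genes, and the lipid synthesis and transport genes Scd1 (0.58, Empty Vector 0.11) and Stard4 (0.95, Empty Vector 0.18) among 30. No member passed among 40 ribosome biogenesis genes, 41 amino acid and unfolded protein stress genes, 16 Hedgehog genes, 20 Eph and ephrin genes, 9 replication-dependent histone genes and 17 genes of miRNA and shRNA processing.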

How the data were processed

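RNA from 10 cultures was hybridised to Affymetrix mouse expression arrays, and 6 arrays enter here. The deposited table holds linear intensity values that the authors computed with RMA (background correction, quantile normalization and probe set summary). The version is not given in the sources used here. RMA forces arrays to a common distribution (median intensity 38.6 to 39.7 here), and the number of arrays limits the precision. Groups came from the labels. The 64 control probe sets were left out of 45101. The platform annotation gave 34945 probe sets 1 symbol, 932 several and 9160 none, and 34741 of those symbols matched RefSeq. Values were taken to log2 and tested with limma 3.58.1 in R 4.3.3 (lmFit, eBayes) with 1 mean per group over Empty Vector and both Wapal groups, two-sided, with Benjamini-Hochberg adjustment over 45037 probe sets and a threshold of 0.05. The second test gave each Empty Vector array its own mean. Scripts were tested on simulated data.

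Each gene is represented by its brightest probe set with 1 symbol. The text names Wapl and cohesin genes, the 15 largest passing differences in each direction and the 5 largest per order of groups (group mean log2 of at least 6), the 6 largest Empty Vector differences, and passing and some other members of each list. The part, the lists and the tests were chosen with earlier results of these data known. Replicate numbers did not pair arrays, since correlations of replicate differences between groups were 0.022, 0.0348 and -0.0622. The alternatives were other normalizations, offsets, filters, variance models, sets of arrays and a t-test. Promoter windows were matched by symbol.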

Additional observations from a re-analysis of the deposited data

How the results depend on the processing

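Leaving out one Wapal array at a time left 0 to 1 probe sets higher and 0 to 2 lower with shRNA2. Over all 6 single omissions, the Empty Vector arrays included, the counts ran from 0 to 831 higher and from 0 to 907 lower, the latter without either Empty Vector array. Wapl (brightest probe set) then ranged from -2.15 to -2.04, with adjusted p from 0.00273 to 0.06, past 0.05 without replicate 1 of shRNA1 or replicate 2 of shRNA2. Counts of 321 higher and 177 lower became 661 and 550 with a mean log2 of at least 6, 1164 and 1126 with trend and robust variance, 852 and 663 with all 10 arrays, 831 and 907 with the 4 Wapal arrays, and 1367 and 1537 with the 8 arrays without Empty Vector, which was chosen after seeing the data. An offset of 16 gave 335 lower. The methods' t-test on the 4 arrays gave 2943 higher and 3153 lower at an unadjusted p under 0.05 and 0 of either after Benjamini-Hochberg adjustment (Wapl -2.10, adjusted p = 0.268). With a replicate block 217 were higher and 111 lower, 197 and 99 of them shared with the counts above, and the numbers do not pair the arrays. Beyond the Empty Vector difference 2 passed with a mean log2 of at least 6 (Wapl and Ccnd2), 287 with trend and robust variance (164 higher, 123 lower), 2 with all 10 arrays, and 0 to 3 when a Wapal array was left out (Wapl and Nudt21). There Wapl stayed at -2.18 and passed with the filter (adjusted p = 0.0329), trend and robust variance (5.49e-10) and 10 arrays (0.00683), and it ranged from -2.24 to -2.12 with a Wapal array left out (adjusted p from 0.0257 to 0.69). Quantile normalization, median centring and a 1.5-fold minimum kept both counts within 1.5 times. The variance models, the replicate block, the t-test and the sets of arrays that keep all 4 Wapal arrays leave the difference itself unchanged. The named genes were also picked because they passed, so a change of direction was hardly possible. None of the 79 passing genes named here changed direction in any setting. Of these, 78 no longer passed when any single Wapal array was left out, Wapl being the exception. In the settings other than single omissions and the t-test, 55 passed wherever they were tested. The other 24 did not pass in 1 or more of these settings, among them Gja1, Anxa2, Dusp1, Fgf4, Id4, Scd1 and Tex12. The filter of a mean log2 of at least 6 removed some genes, which were then not tested in that setting. Among those removed were Gbp2, Gbp2b, Gsn, Tex101 and Fgfbp1. Of the 30 leading genes the median over all probe sets of the gene moved by more than the standard error in 11. Of the 79 genes, 38 have a single probe set and in 13 the median over probe sets was smaller by more than 1.5 times (Anxa2, Bmpr2, Cited2, Ddit4l, Gadd45b, Gsn, Impact, Maats1, Map2, Nat8f2, Pkp2, Sp110 and Wapl). Leaving out either Empty Vector array gives the same fit as the 4 Wapal arrays, since an Empty Vector array left alone adds nothing to the spread. Why the other counts moved was not tested.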
